A study of Salmo salar with 8 samples.

Results

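Among the 44K salmonid array probes that the study called different, the TNF receptor superfamily was represented by 2 genes and 4 probes. Of these, 2 probes were named *tnfrsf6b* (C056R147 and C089R112) and 2 were named *tnfrsf11b* (C121R047 and C076R029). The members were every probe whose symbol began with TNFRSF among the 2139 probes of the study's table of differing probes, in which 1449 genes are named, and no other member of the superfamily was named there. The array held 43689 probes, and 38695 of them could be tested. That table lists probes the study had called different between Day 1 and Day 5 in these same samples. The fall of the 4 probes is therefore what selected them, and their values are given as a description. Where a member is said below to pass a threshold or not, this describes the fit, and no support for the fall is read from it. Receptor probes outside that table were not analysed here, so a receptor of the family that did not change would not appear below. The RefSeq gene table of Atlantic salmon used here (assembly Ssal_v3.1) holds 1 gene with the symbol *tnfrsf11b* and 0 with the symbol *tnfrsf6b*, and 5 symbols in it begin with tnfrsf. The symbols of the probes rest on the study's sequence searches, and whether both probes of a gene read 1 transcript or 2 related copies is not given in the sources used here.

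Adherent head kidney leukocytes (HKLs) are leukocytes of the blood-forming organ of bony fish that were separated on a density gradient and attach to plastic. Cells from 4 Atlantic salmon were grown without stimulation in L-15 medium with fetal bovine serum and antibiotics, rinsed to remove cells that had not attached, and harvested on Day 1, after 24 h in the dish, and on Day 5, after 120 h. Each fish thus contributed a sample to both days, and the 8 RNA samples (Cy5) were each hybridised against a common pool of the study's samples (Cy3), without dye swaps. A further fish, which the study took out after hybridization, may be part of that pool. Every value is therefore a log2 ratio of Cy5 over Cy3 in which 0 means the level of the pool. The sources used here give no further treatment or genotype, and the cultures are mixed populations rather than sorted macrophages.

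Receptors of this superfamily bind ligands of the TNF family at the cell surface and pass the signal on to adaptor proteins such as the TRAFs, which lead to NF-kB, to JNK or to cell death. Some members are decoys that bind a ligand without passing on a signal. In human, TNFRSF6B, also called decoy receptor 3, is a secreted protein that binds FASLG, TNFSF14 and TNFSF15, and TNFRSF11B, also called osteoprotegerin, is a secreted protein that binds TNFSF11 (RANKL), the signal for osteoclast formation from cells of the macrophage lineage, and TNFSF10 (TRAIL).

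The median Cy5 intensity of the probes ranged from 176 to 594 over the 8 arrays, between 4.44% and 11.9% of an array's probes carried a quality flag, and 40.4% to 51.3% of the probes lay above the array's negative-control limit, set at 2 SD above the mean Cy5 signal of the 153 negative controls. Of the 3 slides, slide 1 carried Fish 1 at both days and Fish 2 at Day 1, slide 3 carried Fish 3 at both days and Fish 4 at Day 1, and slide 2 carried only Day 5 arrays. Of the 27 tested probes named for macrophage markers, 19 were above that limit on all 8 arrays, and all 27 were above it on at least 1.

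Both decoy receptors were lower in Day 5 HKLs than in Day 1 HKLs. The fitted fall was 6.31-fold for *tnfrsf6b* on C089R112, and 3.54-fold (C121R047) and 4.07-fold (C076R029) for *tnfrsf11b*. On C056R147, whose Day 5 signal was under the negative-control limit, the fall was 3.26-fold against the floor described below. That value is taken from the sample channel alone, whereas the others are fitted from ratios of sample over pool. It is therefore not on the same measure. All 4 probes were lower at Day 5 in 4 of 4 fish, and the Day 1 and Day 5 log2 ratios overlapped for none of them. Among the 26008 probes with a value on all 8 arrays, 6.01% did not overlap and were lower at Day 5, 5.33% did not overlap and were higher, and 12.8% were lower in all 4 fish. All 4 members passed the adjusted threshold of 0.05 in the limma fit, in which 2.03% of all tested probes passed and 0.936% passed and were lower at Day 5 (13.3% had an unadjusted p under 0.05); as the members were selected on this contrast, nothing is read from these counts.

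The log2 ratios of *tnfrsf6b* on C089R112 were 0.35, 0.58, 0.62 and 1.43 in the Day 1 HKLs of Fish 1 to Fish 4. In the Day 5 HKLs of the same fish they were -1.33, -1.77, -2.79 and -1.77. Every Day 1 sample was above the pool and every Day 5 sample below it, with a gap of 1.67 between the lowest Day 1 and the highest Day 5 value. The mean was 0.74 ± 0.47 (SD, n = 4) at Day 1 and -1.91 ± 0.62 (SD, n = 4) at Day 5, a log2 change of -2.66 with a standard error of 0.35. Within fish the change was -1.67, -2.34, -3.41 and -3.20 in Fish 1 to Fish 4. The fall was thus smallest in Fish 1 and largest in Fish 3, which also had the lowest Day 5 value.

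The intensities behind this probe were far from the background. Its Cy5 intensity was 21745, 25033, 29396 and 42055 in the Day 1 HKLs of Fish 1 to Fish 4, which is 45.1 to 137 times the negative-control limit of the array. At Day 5 the intensity was 4897, 6544, 3171 and 6128, or 6.71 to 14.2 times that limit. The Cy3 intensity of the pool, which is the same RNA on every array, averaged 20384 (SD 1255) on the Day 1 arrays and 21124 (SD 5154) on the Day 5 arrays. It was 13446 on the Day 5 array of Fish 1, against 22836 to 24190 on the other Day 5 arrays. In the sample channel the mean Day 1 intensity was 5.70 times the mean Day 5 intensity. The part of the low pool signal in the smaller fall of Fish 1 was not tested.

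On the other *tnfrsf6b* probe, C056R147, the log2 ratios were 1.48, 0.23, 0.87 and 1.14 in the Day 1 HKLs of Fish 1 to Fish 4. At Day 5 they were -1.23, -1.64, -1.86 and -2.86. All Day 1 values again lay above all Day 5 values, by at least 1.46, and Fish 1 was the highest at Day 1. The means were 0.93 ± 0.53 (SD, n = 4) at Day 1 and -1.90 ± 0.70 (SD, n = 4) at Day 5, and the fitted log2 change was -2.83 with a standard error of 0.36.

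This probe was dim, and its Day 5 level is only bounded. Its Cy5 intensities were 1123, 827, 1038 and 1005 at Day 1, each above the limit of its array, and 507, 182, 150 and 123 at Day 5, where the limits were 693, 461, 473 and 431. None of the 4 Day 5 arrays (0 of 4) reached the limit. On single channels after loess and Aquantile normalization, the mean log2 Cy5 signal was 9.93 at Day 1 and 7.43 at Day 5. It was 8.23 at Day 5 when no value was allowed below a floor. That floor was the array's lowest normalized signal among good-quality spots whose uncorrected signal passed the limit. The fall of 3.26-fold is the difference from this floor. Because the floor can lie below the limit itself, 3.26-fold is not a strict lower bound. The value also leaves out the spread between fish and is open to dye bias, since no dyes were swapped.

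**Figure D1:**
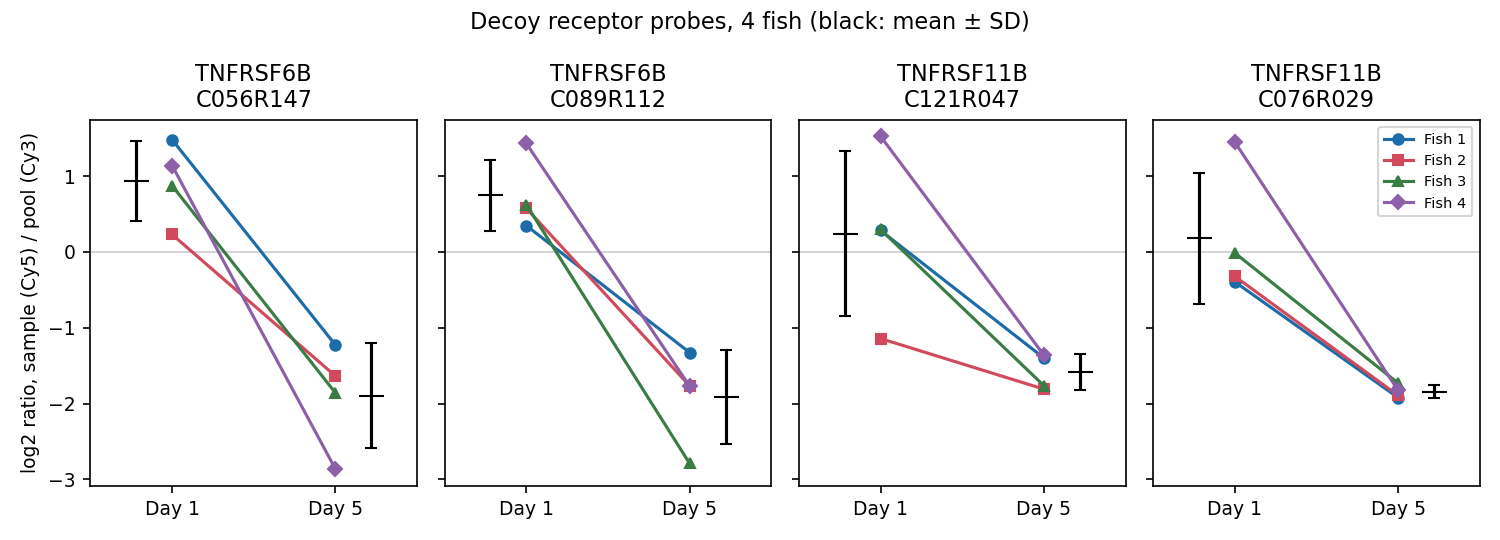
Log2 ratio of sample over pool (vertical axis) for the 4 decoy receptor probes at Day 1 and Day 5, with 1 line per fish and the mean ± SD of 4 fish in black. All 16 lines fall; the Day 1 values of *tnfrsf11b* spread with an SD of 1.09 and 0.86, and those of Day 5 with 0.24 and 0.085.

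The *tnfrsf11b* probe C076R029 had log2 ratios of -0.39, -0.32, -0.01 and 1.45 in the Day 1 HKLs of Fish 1 to Fish 4. At Day 5 they were -1.92, -1.89, -1.73 and -1.83. The Day 5 samples of the 4 fish lay within a narrow range, whereas at Day 1 Fish 4 stood well above the other 3 fish. The means were 0.18 ± 0.86 (SD, n = 4) and -1.84 ± 0.085 (SD, n = 4), and the log2 change was -2.02 with a standard error of 0.36. Within fish it was -1.53, -1.57, -1.72 and -3.28, so that 3 fish changed by nearly the same amount and Fish 4 by more. Without Fish 4 the log2 change was -1.61, and the probe no longer passed the threshold.

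The probe C121R047 had log2 ratios of 0.28, -1.14, 0.30 and 1.53 in the Day 1 HKLs of Fish 1 to Fish 4. At Day 5 they were -1.40, -1.81, -1.76 and -1.36. Fish 4 was again the highest at Day 1, and Fish 2 was low at Day 1 already, only 0.22 above the highest Day 5 value. The means were 0.24 ± 1.09 (SD, n = 4) and -1.58 ± 0.24 (SD, n = 4), and the log2 change was -1.82 with a standard error of 0.37. Within fish it was -1.68, -0.67, -2.06 and -2.89, with the smallest change in Fish 2. Without Fish 3 (-1.75) and without Fish 4 (-1.47) this probe did not pass the threshold.

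The narrow Day 5 range of *tnfrsf11b* lay close to the background. The Cy5 intensities of C076R029 were 1750, 1748, 3397 and 5548 at Day 1 and 558, 493, 493 and 544 at Day 5, the latter 0.806 to 1.26 times the negative-control limit and under it in Fish 1. Those of C121R047 were 2999, 1682, 3424 and 6417 at Day 1 and 761, 982, 632 and 890 at Day 5, or 1.10 to 2.13 times the limit. At Day 1 both probes were above the limit in every fish, by 3.03 to 18.8 times on C121R047 and by 3.15 to 11 times on C076R029. Differences between fish below the limit cannot be read from these arrays.

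The pool was not equally bright on both sets of arrays at these probes. Its mean Cy3 intensity was 3519 on the Day 1 arrays and 2568 on the Day 5 arrays at C121R047, and 3241 and 2072 at C076R029, a Day 1 over Day 5 ratio of 1.37 and 1.56. For *tnfrsf6b* the same ratio was 0.965 at C089R112 and 1.19 at C056R147. The sample channel differed by more, with Day 1 over Day 5 ratios of the mean Cy5 intensity of 4.45 at C121R047, 5.96 at C076R029 and 4.15 at C056R147. The part of the uneven pool signal in the *tnfrsf11b* ratios was not tested.

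**Figure D2:**
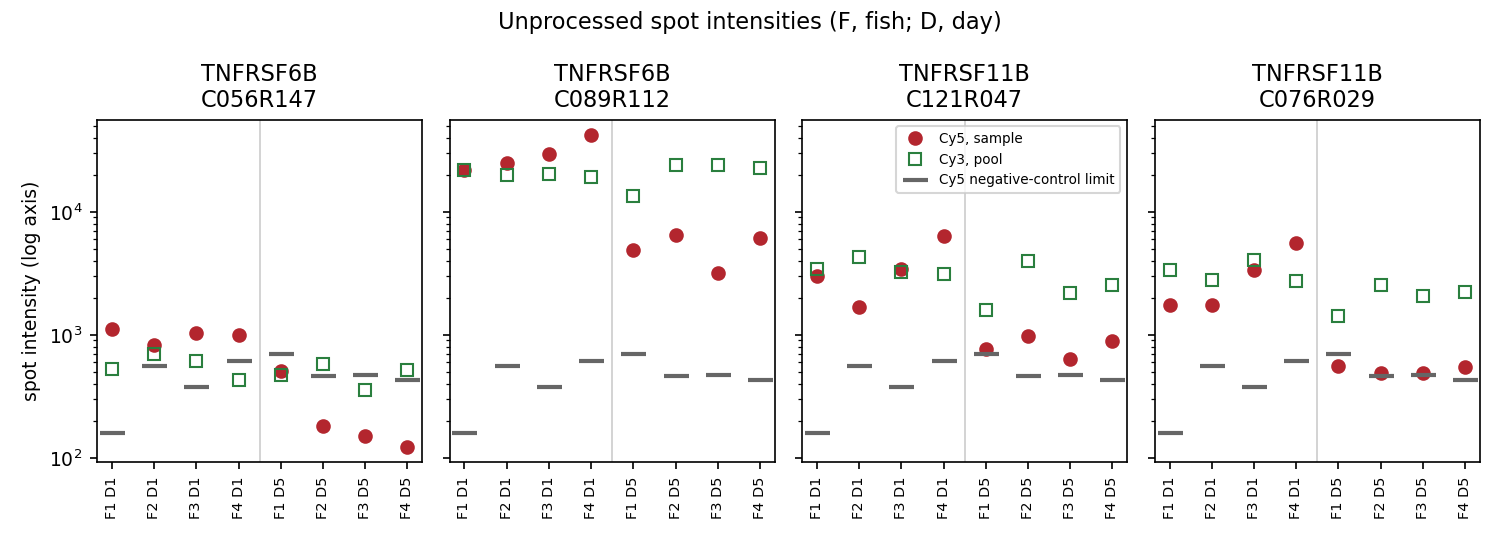
Spot intensities before any correction (vertical axis, log scale) of the 4 probes on each array (F, fish; D, day), with the sample in filled circles, the pool in open squares and the array's negative-control limit as a bar. The Day 5 sample signal stays above the limit on 4 of 4 arrays for C089R112 and C121R047, on 3 of 4 for C076R029 and on 0 of 4 for C056R147.

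In the order of all 38695 fitted changes, counted from the most negative, the *tnfrsf6b* probe C089R112 ranked 31 and the *tnfrsf11b* probes ranked 123 (C076R029) and 194 (C121R047). No rank is given for C056R147, whose Day 5 signal was under the limit. The median change of all tested probes was -0.00399 on the log2 scale. Because the members were selected for their fall, low ranks follow from the selection, and nothing is read from them.

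**Figure D3:**
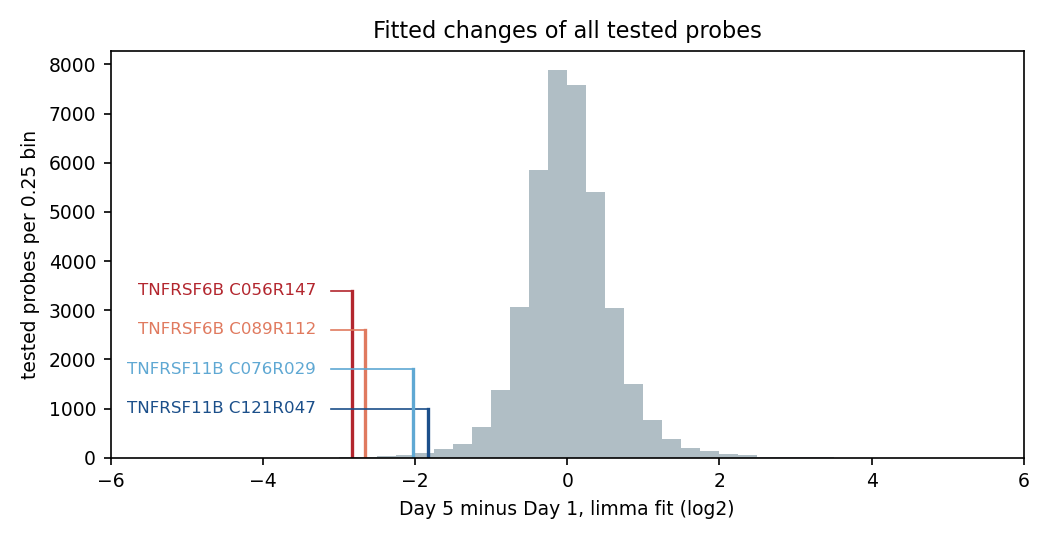
Number of tested probes (vertical axis, per 0.25 bin) by fitted log2 change from Day 1 to Day 5 (horizontal axis), with the 4 decoy receptor probes as coloured lines whose height has no meaning. The members, which were selected for their fall, lie in the lower tail, at -2.83 (C056R147, with its Day 5 signal under the limit), -2.66, -2.02 and -1.82. The median of all 38695 probes is -0.00399.

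The change of *tnfrsf6b*, as the mean of its probes, exceeded that of *tnfrsf11b* in each fish, by -0.59, -0.98, -1.19 and -0.52 in Fish 1 to Fish 4 (mean -0.82 on the log2 scale, SD 0.32, n = 4). With C089R112 alone, the *tnfrsf6b* probe with measurable Day 5 signal, the difference was -0.07, -1.22, -1.53 and -0.12 (mean -0.73, SD 0.75), so that Fish 1 and Fish 4 hardly differed between the genes. On the authors' processed log2 ratios the same difference was 0.057, -0.073, -0.78 and 0.35, with a mean of -0.11 and an SD of 0.48, and was below 0 in 2 of 4 fish. With C056R147 included, whose Day 5 signal was under the limit, the mean difference on those values was -1.39. The Day 5 signal of *tnfrsf11b* was also near the limit, at 0.806 to 1.26 (C076R029) and 1.10 to 2.13 (C121R047) times it. For C089R112 it was 6.71 to 14.2 times. The part of this in the difference between the genes was not tested.

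With the processing as reported, the probes of 1 gene gave similar changes on average. The change on C056R147 minus that on C089R112 had a mean of -0.17 and an SD of 0.87 over the 4 fish, with C056R147 under the limit at Day 5. Other settings moved these probes apart: C056R147 and C089R112 changed by -5.24 and -2.67 on the authors' processed ratios, and by -3.37 and -2.68 with a normexp offset of 0. For *tnfrsf11b* the change on C121R047 minus that on C076R029 had a mean of 0.20 and an SD of 0.56. Over the 8 arrays the log2 ratios of the *tnfrsf6b* probes correlated at r = 0.90 and those of the *tnfrsf11b* probes at r = 0.93. After each day's mean was taken away, r was 0.78 for the *tnfrsf11b* probes, and 0.52 for C089R112 with either of them. For C056R147 it was 0.15 with C089R112, 0.38 with C121R047 and 0.10 with C076R029. The Day 5 deviations of C056R147 lie below the limit, and those of C076R029 lie near it. The r over the 8 arrays includes the difference between the days, on which the probes were selected. The 8 arrays share fish, slides and the pool, and these values are descriptions.

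Fish 4 had the highest Day 1 ratio on 3 of the 4 probes, the exception being C056R147, on which Fish 1 was highest. Fish 4 also had the largest fall on both *tnfrsf11b* probes, while Fish 3 fell most on C089R112. The falls on C056R147 were not ordered by fish, as its Day 5 signal was under the limit in each.

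Slide 1 and slide 3 each held arrays of both days. On slide 1, with 2 Day 1 arrays and 1 Day 5 array, the Day 5 minus Day 1 difference was -1.79 for C089R112, -2.08 for C056R147, -0.97 for C121R047 and -1.56 for C076R029. On slide 3, with the same numbers of arrays, it was -3.82, -2.87, -2.67 and -2.45 in that order. All 4 probes were lower at Day 5 on both slides, and all 4 differences were smaller on slide 1. The Day 1 arrays included Fish 2 on slide 1 and Fish 4 on slide 3, so these differences are not paired by fish. Within Fish 1 and Fish 3 the changes were -1.67 and -3.41 for C089R112, -1.68 and -2.06 for C121R047, and -1.53 and -1.72 for C076R029. The difference between the slides thus also holds differences between fish at Day 1. With slide as a fixed block beside fish the changes were between -2.72 (C056R147) and -1.62 (C076R029), and 0 of the 4 probes passed the threshold, as did only 20 of the 37992 probes that could be fitted in this way. Fish 2 and Fish 4 changed slide between the days, so in this fit the change comes from Fish 1 and Fish 3 alone. The loss of passes here cannot be told apart from the loss of Fish 2 and Fish 4.

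**Figure D4:**
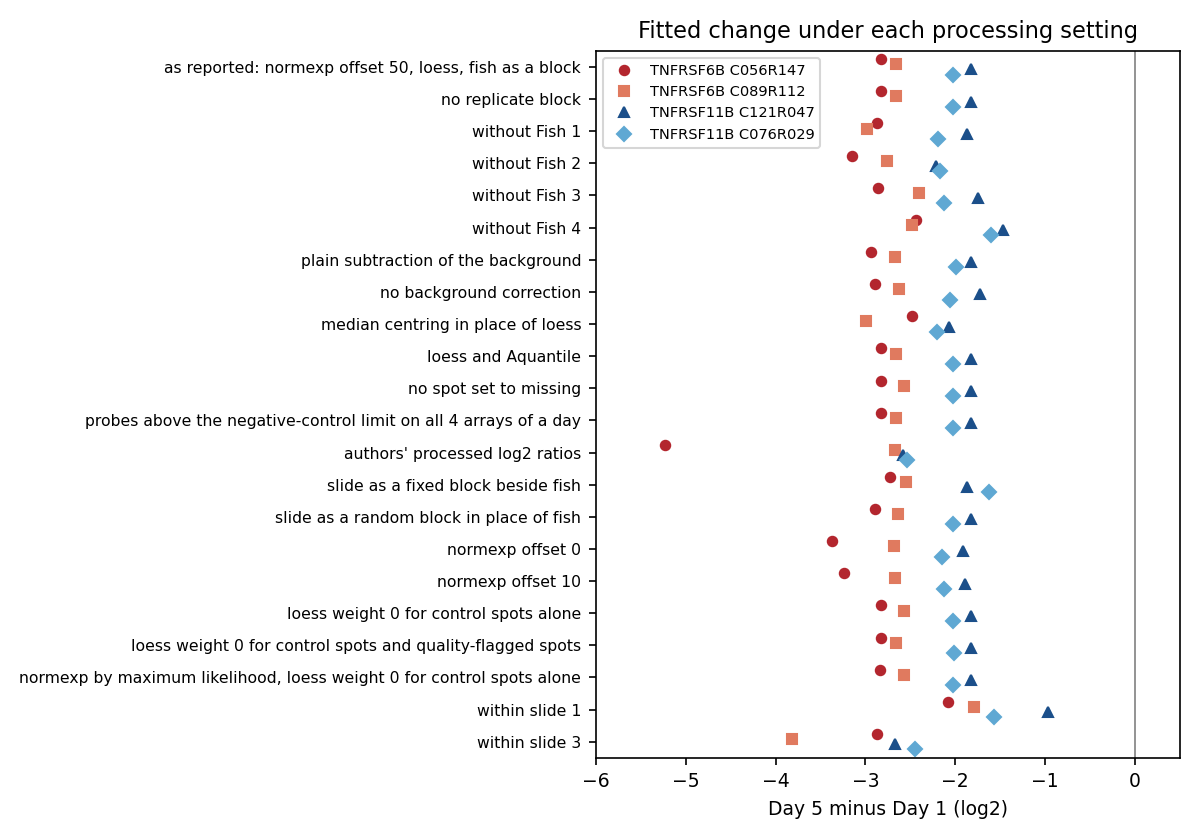
Day 5 minus Day 1 change on the log2 scale (horizontal axis) of the 4 decoy receptor probes as reported (top) and under 21 other settings of the processing or subsets of the arrays. All 84 values under the other settings are below 0; the farthest from the rest is C056R147 on the authors' processed ratios, at -5.24.

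Lists of ligands, adaptors and effectors linked to TNF signalling, some of which also serve other receptors, were looked up in the same table. Of 96 listed symbols, 15 had a probe there, with 16 probes in all, and all 16 were tested. At an adjusted p under 0.05 (limma, fish as a block), 5 of the 16 were higher in Day 5 HKLs, 3 were lower and 8 did not pass, beside 1.09% of all tested probes that were higher and 0.936% that were lower. The table was chosen on these samples, and of its 2083 tested probes 34.1% passed, so the share of the lists is no independent evidence. The same holds for the adjusted p values and passes of the single probes below, which describe the fit. With median centring in place of loess the balance turned, with 3 higher and 5 lower. As reported, the median log2 change of the 16 probes was 0.10, against 0.58 for all tested probes of the table. None of the 28 other receptor symbols (0 of 28) had a probe in the table, and neither did the human ligands of the decoy receptors named above, which were therefore not analysed here.

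TNF, a cytokine that activated macrophages release, is not among the human ligands of the decoy receptors named above. Its probes changed in the opposite direction to those of the decoy receptors. The probe C168R139, named TNF-ALPHA-1, had log2 ratios of -1.32, -1.74, -2.20 and -1.53 in the Day 1 HKLs of Fish 1 to Fish 4. At Day 5 they were 0.69, 2.04, -0.34 and -0.00405, without overlap between the days. Its log2 change was 2.29 (standard error 0.38, adjusted p = 0.0093), higher in 4 of 4 fish, with 2 of the 4 Day 1 arrays above the negative-control limit. With each fish left out in turn it passed in all 4 fits, with adjusted p between 0.0139 and 0.0298. It was lost with plain subtraction of the background (adjusted p = 0.20), without background correction (0.163) and with slide as a fixed block (0.155). A normexp offset of 0 (0.269) or 10 (0.131) also lost it. Over all 19 alternatives the adjusted p ran from 0.00399 to 0.269.

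The probe C237R068, named TNF, had log2 ratios of -1.43, -0.57, -0.80 and -0.05 at Day 1. At Day 5 they were 0.99, 1.74, -0.12 and 0.87, so that the Day 5 value of Fish 3 lay below the Day 1 value of Fish 4. Its log2 change was 1.58 (standard error 0.37, adjusted p = 0.048), higher in 4 of 4 fish. This call was at the edge of the threshold: it was lost with any 1 fish left out, with adjusted p from 0.0581 (without Fish 3) to 0.147 (without Fish 1 and without Fish 2). It was also lost without the fish block (adjusted p = 0.0522), with other loess weights (0.0523 to 0.0543), with median centring (0.0877), on the authors' processed ratios (0.0896) and with no spot set to missing (0.112). Over all 19 alternatives the adjusted p ran from 0.0244 to 0.377.

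All 4 probes of the adaptor list, which is not limited to adaptors of TNF receptors, had a fitted change below 0, and 0 of the 4 passed. The log2 change was -1.39 (adjusted p = 0.11) for TRAF3IP2, an adaptor of the IL-17 receptor, -1.21 (adjusted p = 0.096) for TRAF3IP3, which binds TRAF3, and -1.07 (adjusted p = 0.11) for MAP3K1, a kinase upstream of JNK. It was -1.07 (adjusted p = 0.18) for BCL10, an adaptor in NF-kB activation, with 3 of 4 fish lower and Fish 2 at 0.07. TRAF3IP2 and TRAF3IP3 passed with median centring (adjusted p = 0.0382 and 0.0313), and MAP3K1 and TRAF3IP3 when only probes over the negative-control limit were kept (0.0334 and 0.0374). Over all alternatives the adjusted p ran from 0.0382 to 0.757 for TRAF3IP2, 0.0313 to 0.495 for TRAF3IP3 and 0.0334 to 0.568 for MAP3K1.

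Among the 10 effector probes, 3 were higher and 3 lower at Day 5. Higher were CCL2, a chemokine that draws monocytes, with a log2 change of 1.91 (standard error 0.40, adjusted p = 0.028), and XAF1, which promotes apoptosis, with 1.73 (standard error 0.31, adjusted p = 0.012), both in 4 of 4 fish. TNFAIP2, named for its induction by TNF, rose by 2.06 (standard error 0.42, adjusted p = 0.029) in the 3 fish with values on both days, with 1 of 4 Day 1 arrays above the limit. CCL2 was lost without Fish 1 and without Fish 2 (adjusted p up to 0.0991), XAF1 without Fish 4 (0.0662), and TNFAIP2 without Fish 2, Fish 3 or Fish 4 (up to 0.126).

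Lower were IL1B, an inflammatory cytokine, with a log2 change of -1.58 (standard error 0.31, adjusted p = 0.021) in 4 of 4 fish, and BMF, a BH3-only protein that promotes apoptosis, with -1.79 (standard error 0.39, adjusted p = 0.043). JUN, a subunit of the AP-1 transcription factor, had -1.83 (standard error 0.38, adjusted p = 0.033), with its Day 5 signal under the limit on all 4 arrays. The size of the JUN change is therefore uncertain, and on the authors' processed ratios it was -3.60. Against the floor described for C056R147, in the sample channel alone, the fall of JUN was 3.67-fold, which is not a strict lower bound. BMF and JUN had no Day 5 value in Fish 4 and were lower in the other 3 fish. IL1B was lost without Fish 3 and without Fish 4 (adjusted p = 0.147 and 0.115), and BMF and JUN with any 1 fish left out (up to 0.181 and 0.244). Among the effector probes that did not pass, the log2 change was 0.88 for JUNB, another AP-1 subunit, and 1.35 and 1.14 for the probes of VCAM1, an adhesion molecule.

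**Figure D5:**
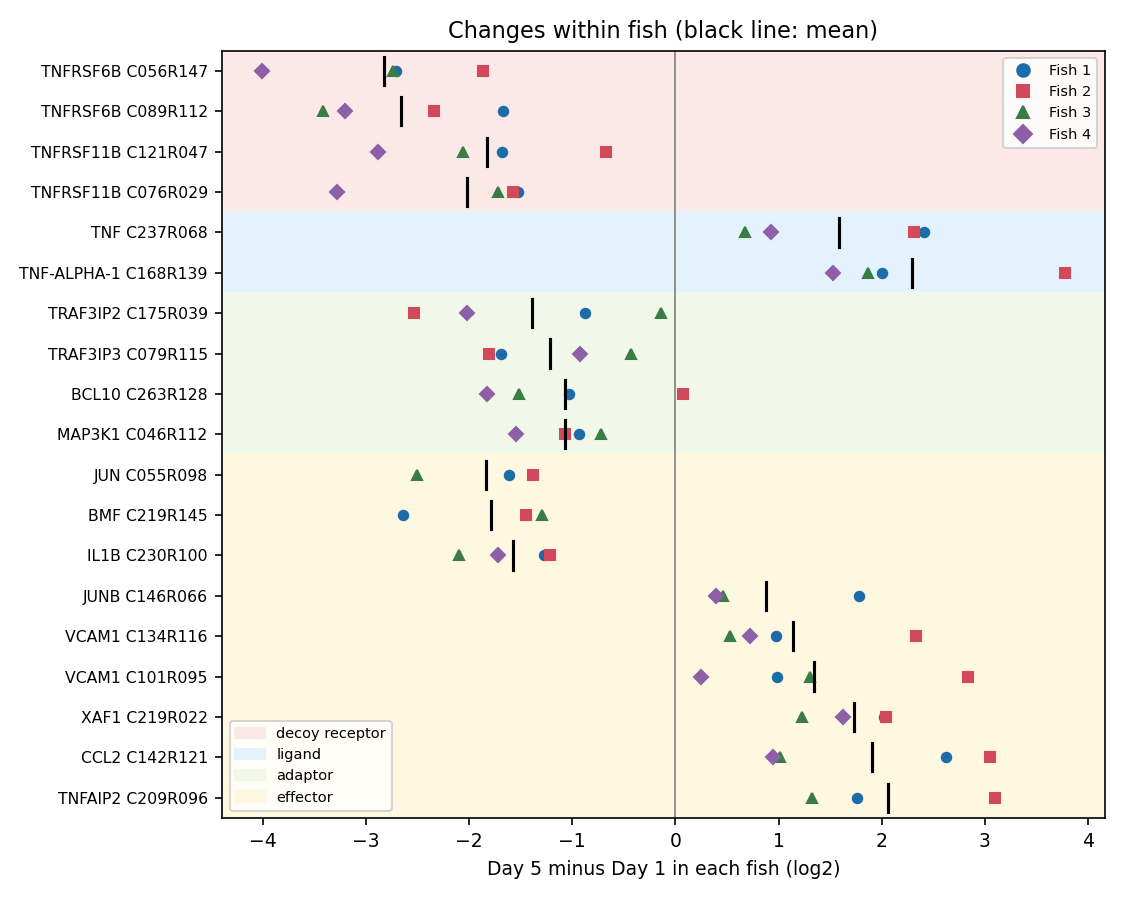
Day 5 minus Day 1 change in each fish on the log2 scale (horizontal axis) for the 4 decoy receptor probes and 15 probes of TNF ligands, adaptors and effectors, with 1 symbol per fish and the mean as a black line; a fish without a value on both days has no symbol. All 16 points of the decoy receptors lie below 0 and all 8 points of the TNF probes above it.

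Some marker probes of other cell types also differed between the days, and in a culture of mixed cells fewer cells of a type and less RNA per cell cannot be told apart. Of the tested marker probes, 21 of 29 passed and were lower at Day 5 for erythroid cells, 51 of 84 for B cells, 1 of 21 for T and NK cells, 2 of 4 for neutrophils, 2 of 10 for thrombocytes and 2 of 12 for stromal, endothelial and epithelial cells, and 15 of 27 for macrophages were higher. Thrombocyte and stromal markers also had 1 higher probe each. Many probes shared a symbol, so they are not separate genes. The table held probes of 16 listed symbols for erythroid cells, 12 for B cells and 9 for macrophages. Of all tested probes in the table, 16.2% passed and were lower and 17.9% passed and were higher. The counts of T and NK cells, of thrombocytes and of stromal, endothelial and epithelial cells were near or under these shares, and nothing is read from them. The neutrophil list rests on 4 tested probes, of which 1 had a fitted change above 0. The mean log2 ratio of the erythroid list was 0.0192 to 1.23 at Day 1 and -1.82 to -0.993 at Day 5, that of the B cell list 0.237 to 0.568 and -1.46 to -0.774, and that of the macrophage list -1.36 to -1.08 and 0.109 to 0.763. For T and NK cells it was -0.112 to 1.20 and -1.23 to -0.125, for neutrophils -0.034 to 0.225 and -1.58 to -0.486, for thrombocytes -0.111 to 0.311 and -0.802 to -0.247, and for stromal, endothelial and epithelial cells -0.212 to 0.354 and -0.796 to -0.222. By fish, the erythroid mean at Day 1 was 0.289, 0.733, 0.0192 and 1.23 in Fish 1 to Fish 4. That of the stromal, endothelial and epithelial list was -0.212, -0.13, -0.0407 and 0.354, and Fish 4 was highest in both. Fish 1 was highest at Day 1 in the B cell, T and NK cell, neutrophil and thrombocyte lists, and Fish 2 in the macrophage list. On both *tnfrsf11b* probes and on the *tnfrsf6b* probe C089R112 Fish 4 was highest at Day 1, and on C056R147 Fish 1 was highest. The lowest was Fish 2 on C121R047 and Fish 1 on C076R029 and C089R112. In each of the 7 lists every tested probe was above the limit on at least 1 array. The symbols came from the table of probes chosen on these samples, and the part of these cells in the fall of the decoy receptors was not tested.

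The genes most like each receptor were sought among 1679 named probes of 1229 genes with values on all 8 arrays, by Pearson's r with the mean log2 ratio of the receptor's probes. Each gene entered by its probe with the highest r, so a gene with many probes, such as IGHA2, had more chances. For *tnfrsf6b* they were IGHA2 (C177R112, r = 0.993), an immunoglobulin heavy chain gene, ALAD (C061R168, 0.989), an enzyme of haem synthesis, RPL4 (C005R097, 0.989), a ribosomal protein, ENDOD1 (C078R130, 0.984) and KLF2 (C262R019, 0.983), a transcription factor. For *tnfrsf11b* they were AFMID (C246R093, 0.977), an enzyme of tryptophan breakdown, ILF2 (C251R139, 0.975), a subunit of an RNA-binding complex, MTRR (C221R116, 0.965), which reactivates methionine synthase, ST3GAL1 (C137R070, 0.959), a sialyltransferase, and NT5C2 (C112R142, 0.959), a nucleotidase. The genes named for the receptors did not coincide. The receptors correlated with each other at 0.90, and 221 of the 1679 probes were more like *tnfrsf6b* than *tnfrsf11b* was. All candidates come from probes chosen for a difference between the days, which by itself raises r over 8 arrays, and the *tnfrsf6b* mean includes C056R147.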

How the data were processed

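The authors scanned the arrays, quantified the spots with ImaGene and deposited the intensity of each spot and its local background in both channels, with quality flags and without normalization. A table of 18108 probes deposited beside these holds the authors' log2 ratios, background-corrected, loess-normalized, filtered and imputed. Fold changes and test statistics in the supplementary tables were not used; only probe names and symbols were read. The genome build behind the probes is not given in the sources used here, so no coordinates are printed.

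Processing used limma 3.58.1 and statmod 1.5.0 under R 4.3.3. Signal mean and background median were corrected by normexp (offset 50) and loess-normalized within arrays. Control spots and spots of low quality (flagged, or not above the local background by 2 SD in either channel) had weight 0, and low-quality spots were treated as missing. A probe needed values on at least 6 of 8 arrays. The weight given to low-quality spots was chosen after other weights had been run, because it gave the number of calls of an earlier analysis of these data; the others are listed with the alternatives. The days were compared in limma's moderated linear model, in which fish was a block, with Benjamini-Hochberg adjustment and a threshold of 0.05. The pairing comes from the fish of origin: after removal of each day's mean, the Day 1 and Day 5 values of Fish 1 to Fish 4 had r of -0.052, -0.078, 0.079 and 0.034 over probes. Paired SAM was implemented here over all 16 sign changes, at an FDR of 0.05. Each member's change rests on 4 differences within fish, and that of some other named probes on 3, which limits the precision. The procedures were tested on simulated data.

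Named are the 4 members, the tested probes of the TNF ligand, adaptor and effector lists, and the 5 genes most correlated with each receptor; 1 effector probe is counted but not reported here on its own. The members and lists were chosen with earlier results of these data known. The ratios to the negative-control limit, the difference from C089R112 alone and the calls with single fish left out were added after the values were seen. Alternatives were leaving out each fish, other background corrections, normalizations, weights, filters and slide terms, and the authors' values.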

Additional observations from a re-analysis of the deposited data

Results flagged for a closer look

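In 48 groups of 4 values (the Day 1 values, the Day 5 values and the changes within fish of 16 probes), the gap between an extreme value and its nearest neighbour was compared with the group's range. It was unusually large in 2 groups, where chance gives about 2.4, or 1 in 20. The change of *tnfrsf11b* on C076R029 in Fish 4 was one of them: it was -3.28 on the log2 scale against -1.72 to -1.53 in the other 3 fish, a gap of 0.892 of the range. The other was VCAM1 on C101R095 at Day 1, with -1.77 in Fish 2 against -1.07 to -1.001 in the other fish, a gap of 0.908 of the range.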

How the results depend on the processing

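Over 21 other settings, each of the 4 decoy receptor probes stayed lower at Day 5, and 81 of the 84 values differed from those reported by less than the SD between fish. The exceptions were C056R147 on the authors' processed ratios (-5.24, standard error 0.64), and C089R112 within slide 1 (-1.79) and within slide 3 (-3.82). Fish left out in turn gave -3.15 to -2.44 (C056R147), -2.99 to -2.41 (C089R112), -2.21 to -1.47 (C121R047) and -2.19 to -1.61 (C076R029). Without the fish block the 4 changes were the same to 2 decimals, all 4 passed, and 918 probes passed in all. Loess followed by Aquantile leaves ratios unchanged by construction. Leaving out the fish block or the probes under the negative-control limit also cannot move the change of a probe with all 8 values. The values under these settings were therefore fixed in advance. As the members were selected for their fall, its direction under the other settings is a description.

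The number of probes past the threshold depended on the settings far more than the changes did. It was 784 as reported, and 0 with plain subtraction of the background (4217 at an unadjusted p under 0.05), without background correction (4393), and with a normexp offset of 0 (3992) or 10 (4463), both chosen after seeing the data; under these 4 settings 0 of the 4 members and 0 of the 16 TNF pathway probes passed in limma. It was 461 with no spot set to missing (3 pathway probes, 3 members), 1404 when only probes over the negative-control limit were kept, 20 (18 higher, 2 lower) with slide as a fixed block (0 pathway probes), 1238 of 26008 by paired SAM and 2048 of 18108 by paired SAM on the authors' ratios (15 pathway probes), the last added after seeing the data. The study's table, from which the pathway probes were taken, itself came from paired SAM at an FDR of 0.05. The 15 passes on the authors' ratios thus largely follow from the selection. Fish left out in turn gave 279 to 731 probes and 2 to 4 pathway probes, beside 8 as reported. The fewest came without Fish 4. Median centring in place of loess gave 338 higher and 567 lower probes (37.3% higher, against 53.8%). The weights tried before the choice was settled gave 734 (control spots alone), 756 (flagged spots as well) and 741 (normexp by maximum likelihood), each with all 4 members and 7 pathway probes; TNF was the call lost. The fit with slide as a fixed block took its change from Fish 1 and Fish 3 alone. The cause of the shifts in the number of probes was not tested. Signal over background limits C056R147 and C076R029 at Day 5.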
